A study of Mus musculus with 4 samples.

Results

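Brain expression after lipopolysaccharide was compared between 2 of the study's 4 arrays, the array labelled Nav1.8CreROSA26DTA, LPS and the array labelled wild-type, LPS. The arrays were chosen by their labels, and a gene entered where its representative probe was well above background on both, which held for 16520 of 23461 genes with a symbol. Lipopolysaccharide (LPS) is the outer-membrane glycolipid of Gram-negative bacteria, and both groups received it intraperitoneally at 20 mg/kg, with whole brain collected at 12 h. The remaining arrays are the same genotypes after phosphate-buffered saline (PBS). In Nav1.8CreROSA26DTA mice, Cre expressed from the Nav1.8 sodium channel gene (Scn10a) activates diphtheria toxin A from the ROSA26 locus, so that sensory neurons of the Nav1.8 lineage die, most of them nociceptors. The labels give no age, no statement of littermate controls, and no number of mice behind an array.

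Each group held 1 array, so no difference below has a replicate error and none was tested. All differences are log2 of the Nav1.8CreROSA26DTA value minus log2 of the wild-type value, on levels expressed as log2 intensity minus the array's own 75th percentile. A level therefore compares the same probe across arrays and not one gene with another. Both LPS arrays were on the same slide as the PBS arrays, with the genotypes in different columns, so slide position and genotype cannot be told apart. Spots well above background made up 66.5% of the wild-type LPS array and 67.6% of the Nav1.8CreROSA26DTA LPS array. All 26 pan-neuronal and synaptic genes were measured on both arrays and their differences had a median of −0.030.

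Nociceptors are peripheral neurons whose cell bodies lie in sensory ganglia outside the brain. They carry receptors for bacterial products and cytokines, and they signal both to the central nervous system and to immune cells at their endings. In the brain, systemic LPS is known to act through endothelium, border macrophages and microglia, which release cytokines and chemokines, and through astrocytes, which produce acute-phase proteins. Oligodendrocytes, which wrap axons in myelin, are sensitive to inflammatory signals. Which of these responses differ when nociceptors are missing is the question the comparison addresses.

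Scn10a, the gene whose regulatory sequence drives Cre, stood at −2.20 on the wild-type PBS array, −2.54 on the Nav1.8CreROSA26DTA PBS array, 0.078 on the wild-type LPS array and 0.55 on the Nav1.8CreROSA26DTA LPS array. The difference after LPS was 0.47, and its probes ranged from 0.33 to 0.47. Brain tissue holds no nociceptor cell bodies, so these values do not check the ablation. Gt(ROSA)26Sor, a transcript of the ROSA26 locus, differed by −0.52 after LPS and by −0.51 after PBS. Its probes did not agree after LPS, running from −0.52 to 0.20. Of 22 listed nociceptor and sensory neuron genes 13 were measured, none was 2-fold apart, and their median difference was 0.24. That median turned to −0.034 with normexp background correction and to −0.071 over members brighter than the median measured gene.

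Most genes had nearly equal levels on the 2 LPS arrays. The median difference over the 16520 genes was 0.004 with quartiles of −0.12 and 0.14, and 93.0% of genes lay within 0.5 of 0. At least 2-fold higher in Nav1.8CreROSA26DTA were 137 genes (0.829%), and at least 2-fold lower were 61 (0.369%). These percentages are the background against which each list below is read. Genes past 2-fold were mostly dim. The median level on the wild-type LPS array was −3.85 for the higher genes and −3.16 for the lower genes, against 0.037 for all measured genes. Among genes brighter than the median measured gene, 18 were at least 2-fold higher and 3 lower. With normexp, which draws dim signals together, 42 genes were higher and 9 lower.

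**Figure D1:**
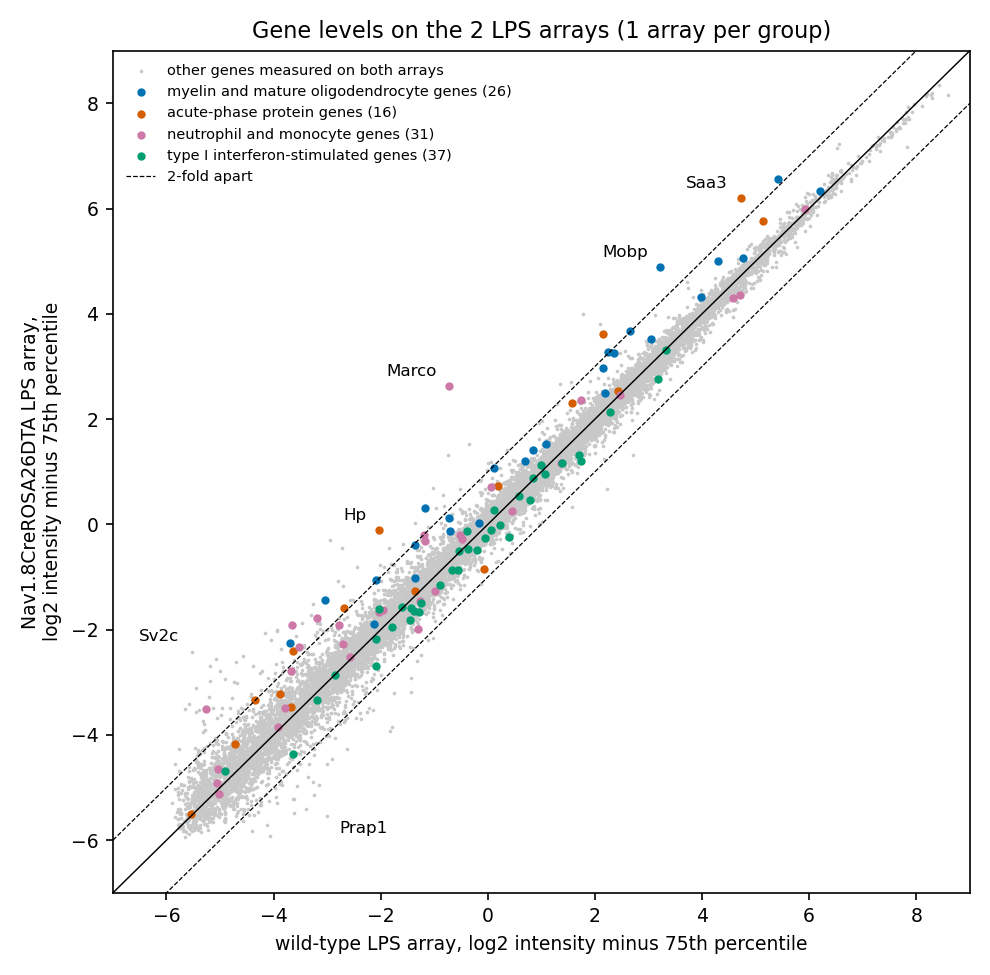
Levels of all 16520 measured genes on the wild-type LPS array (horizontal) and the Nav1.8CreROSA26DTA LPS array (vertical), both as log2 intensity minus the array's 75th percentile, with 1 point per gene. The 26 myelin genes all lie above the diagonal, Marco stands farthest above it, and the 37 type I interferon-stimulated genes lie within the dashed lines that mark 2-fold.

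Genes of myelin and mature oligodendrocytes were higher in Nav1.8CreROSA26DTA after LPS in all 26 of 26 measured cases. Their median difference was 0.76, against 0.004 over all genes, and 8 of 26 (30.8%) were at least 2-fold higher against the background of 0.829%, while 0 were 2-fold lower. The remaining listed gene, Myrf, a transcription factor gene of myelinating cells, was not well above background on either array. Fewer oligodendrocytes in a sample and less RNA in each of them cannot be told apart in bulk tissue, and no value here records how the brains were dissected.

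Mobp, which encodes a protein of compact central myelin, had levels of 3.03 (wild-type PBS), 3.99 (Nav1.8CreROSA26DTA PBS), 3.22 (wild-type LPS) and 4.89 (Nav1.8CreROSA26DTA LPS). It was thus highest on the Nav1.8CreROSA26DTA LPS array, 3.17-fold above wild-type LPS, and the PBS arrays differed by 0.96 in the same direction. Opalin, an oligodendrocyte membrane protein gene, stood at −1.46, −0.95, −3.04 and −1.44 in the same order. Here the wild-type LPS array was the low one, and the difference was 1.61. Klk6, a secreted protease gene of oligodendrocytes, differed by 1.43 after LPS and by −0.068 after PBS.

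Cldn11, the claudin of myelin tight junctions, differed by 1.03. Cnp, the gene of a myelin phosphodiesterase, and Ugt8a, which makes galactosylceramide, each differed by 1.02. Just under 2-fold were Pllp and Fa2h, a fatty acid hydroxylase gene for myelin lipids, each at 0.96, Mag at 0.90 and Mog at 0.86. Members with smaller differences ranged from 0.12 for Apod, which encodes a lipocalin, to 0.82 for Tspan2. Mbp, the gene of myelin basic protein, differed by 0.49, but its 3 probes ran from −0.32 to 0.66. It was the sole gene among the 7 with several measured probes whose probes disagreed in sign.

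The wild-type LPS array held the lowest of the 4 levels for 20 of the 26 genes. All 26 were higher on Nav1.8CreROSA26DTA LPS, so that array could not be lowest, and the 20 draws on the same difference. Wild-type LPS was also lowest for 13 of 21 oxidative phosphorylation, 11 of 22 ribosomal protein and 10 of 15 oligodendrocyte precursor genes. From PBS to LPS the median change of the myelin genes was −0.51 for wild-type mice and −0.046 for Nav1.8CreROSA26DTA mice. These changes share their LPS arrays with the differences above. After PBS, on arrays that take no part in the LPS difference, the myelin genes had a median difference of 0.33, with 21 of 26 above 0, 0 at least 2-fold higher and 1 at least 2-fold lower, Ermn at −1.03. Hapln2 differed by −0.72 there. With normexp 6 of the 26 remained at least 2-fold higher and all 26 stayed above 0, and among the 16 brighter members 4 were at least 2-fold higher with a median of 0.64.

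**Figure D2:**
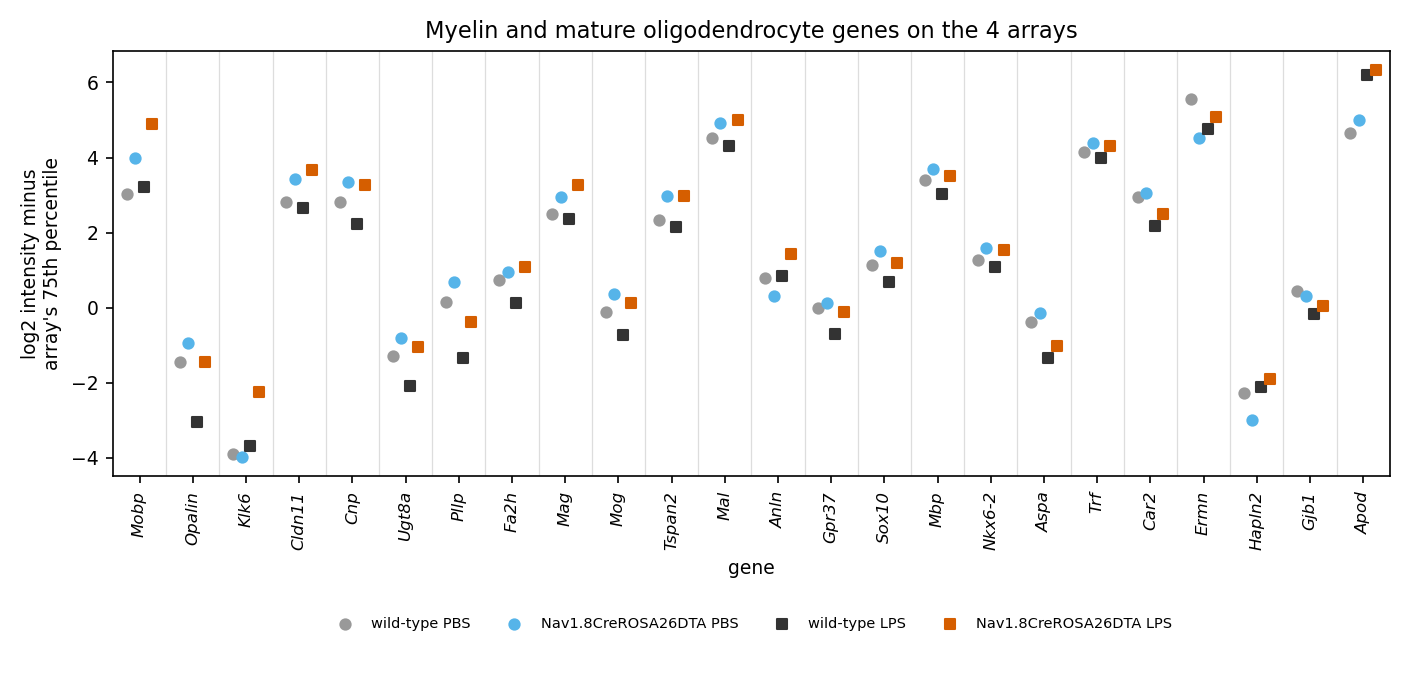
Levels of 24 of the 26 measured myelin and mature oligodendrocyte genes on each of the 4 arrays, as log2 intensity minus the array's 75th percentile, ordered by the difference between the LPS arrays. For 18 genes drawn the wild-type LPS array (dark square) is the lowest of the 4, and the Nav1.8CreROSA26DTA LPS array (orange square) is above it for all 24, from Mobp (1.67) to Apod (0.12).

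Genes of precursors and newly forming oligodendrocytes were less uniform. Of 16 listed, 15 were measured, with 12 above 0, 1 at least 2-fold higher and a median of 0.25. The exception was Enpp6, a marker of newly forming oligodendrocytes, at −2.53, −1.49, −3.46 and −1.87 on the arrays in the order used above, a difference of 1.60 after LPS and 1.04 after PBS. Gpr17, a receptor gene of committed precursors, differed by 0.98, Pdgfra, the growth factor receptor gene of proliferating precursors, by 0.38, and Cspg4, the NG2 proteoglycan gene, by 0.020. C1ql1 was not well above background on the wild-type LPS array and was at least 1.64-fold higher in Nav1.8CreROSA26DTA.

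The sequence upstream of 2 leading myelin genes is shown because the SOX letters recur in one of them. It is the 250 bases before the annotated start from RefSeq on GRCm38.p6, for Mobp chr9:120149492-120149741 on the plus strand and for Opalin chr19:41077114-41077363 on the minus strand, and capitals mark matches on either strand to ACAAAG or ACAATG, 2 forms of the site bound by SOX factors such as Sox10.
Mobp: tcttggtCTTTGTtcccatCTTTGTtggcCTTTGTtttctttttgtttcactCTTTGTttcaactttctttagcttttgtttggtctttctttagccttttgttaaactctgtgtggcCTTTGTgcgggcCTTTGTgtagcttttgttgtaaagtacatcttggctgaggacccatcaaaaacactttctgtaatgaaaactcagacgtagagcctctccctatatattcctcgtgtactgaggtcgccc
Opalin: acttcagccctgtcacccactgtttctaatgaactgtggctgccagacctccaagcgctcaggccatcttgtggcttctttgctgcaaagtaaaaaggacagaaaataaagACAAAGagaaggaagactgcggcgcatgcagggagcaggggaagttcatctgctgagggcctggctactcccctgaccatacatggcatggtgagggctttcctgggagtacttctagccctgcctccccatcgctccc
Mobp held 6 matches, each written as the reverse complement of ACAAAG, and Opalin 1. Of 19 measured myelin genes with an upstream sequence in the table, 9 (47.4%) held at least 1 match, against 18.4% of 13046 measured genes and 25.5% of all 27025 promoters of this length. The share was also 32.1% among 28 measured neutrophil and monocyte genes and 34.0% among 100 genes at least 2-fold higher, and no difference between these shares was tested. Neither sequence held CTGGCAC or CTGGTAC, the letters of the Myrf site, which 4 of the 19 (21.1%) and 5.86% of all promoters held. The same letters were held by 2 of 11 measured acute-phase genes (18.2%), 12.0% of the 100 higher genes and 3.57% of the neutrophil and monocyte genes. A match describes letters and not a bound site, and these motifs were picked with the expression values known.

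Acute-phase genes, which encode secreted proteins induced by cytokines in liver and in brain endothelium and astrocytes, had a median difference of 0.64 over 16 measured of 25 listed. At least 2-fold higher were 6 (37.5%, background 0.829%), and 0 were 2-fold lower. Hp, the haptoglobin gene, stood at −5.86, −3.14, −2.03 and −0.11 in the same order of arrays. It was higher in Nav1.8CreROSA26DTA with either injection, by 1.92 after LPS and by 2.72 after PBS. Saa3, a serum amyloid A gene of macrophages and epithelia, was dim (not well above background) with PBS in both genotypes and stood at 4.72 on wild-type LPS and 6.20 on Nav1.8CreROSA26DTA LPS, a difference of 1.48. Saa1 was at −1.78, −2.05, 2.16 and 3.62, so that the genotypes were near each other after PBS (−0.27) and 2.75-fold apart after LPS. Saa2 differed by 0.53 after LPS and by −1.01 after PBS. Cp, whose 4 probes ran from −0.10 to 0.10, differed by 0.10 after LPS, and A2m by 0.083. Over the 12 members measured on all 4 arrays the list median was 0.59 after LPS and 0.38 after PBS.

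The protease inhibitor genes Serpina3m, Serpina3f and Serpina3i differed by 1.23, 1.10 and 1.01, and their relative Serpina3n, a gene of reactive astrocytes, by 0.73. Members of the Saa and Serpina3 families resemble each other closely, so which member a probe reports is uncertain. Lcn2, a lipocalin gene, stood at 5.13 and 5.76 on the LPS arrays and differed by 0.63. Lbp, which encodes the LPS-binding protein, went the other way, at −0.064 in wild-type and −0.85 in Nav1.8CreROSA26DTA, a difference of −0.78. Orm1 and Orm3, orosomucoid genes, were well above background after LPS on the Nav1.8CreROSA26DTA array alone, at least 1.11-fold and 1.68-fold higher. With normexp 3 of the 16 acute-phase genes remained at least 2-fold higher.

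Of 42 genes of neutrophils and monocytes 31 were measured on both LPS arrays. Their median difference was 0.30, with 6 (19.4%) at least 2-fold higher and 0 lower. Over the 24 members measured on all 4 arrays the median was 0.25 after LPS and 0.28 after PBS. After PBS 6 of these 24 were at least 2-fold higher and 0 lower. Marco, a scavenger receptor gene of macrophages whose product binds bacteria, had the largest difference of all measured genes. Its levels were −4.57 and −4.45 on the wild-type and Nav1.8CreROSA26DTA PBS arrays, −0.72 on wild-type LPS and 2.63 on Nav1.8CreROSA26DTA LPS. The genotypes were thus 0.12 apart after PBS and 3.34 (10.2-fold) apart after LPS. With normexp the difference was 3.08.

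The other 5 were Clec4e (1.77), the gene of the C-type lectin Mincle, Msr1 (1.73), a class A scavenger receptor, Fpr1 (1.41), a receptor for formylated bacterial peptides, Clec4d (1.21) and Chil3 (1.01), a chitinase-like protein of myeloid cells. Clec4e stood at −5.26 and −3.50 on the wild-type and Nav1.8CreROSA26DTA LPS arrays, Msr1 at −3.65 and −1.92, and Fpr1 at −3.18 and −1.77. Clec4e, Msr1 and Clec4d were dim on both PBS arrays. Chil3 differed by 3.35 after PBS, more than after LPS, and Fpr1 by −0.28 after PBS. With normexp, Marco alone of the list remained at least 2-fold higher. Over the 9 brighter members the list median was −0.015.

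Genes that define neutrophils did not differ to that extent. The calprotectin genes S100a8 and S100a9 differed by 0.66 and 0.62 after LPS, against 4.29 and 4.39 on the PBS arrays. Ngp, a granule protein gene, differed by 0.059, Retnlg by 0.051 and Ly6g by −0.27. Mpo, the myeloperoxidase gene, differed by 0.14. Plac8 and Mmp8, both expressed by neutrophils, differed by 0.87 and 0.91. Ltf, Ctsg and Trem3 were well above background after LPS in Nav1.8CreROSA26DTA alone, at least 1.83-fold, 1.08-fold and 2.50-fold higher. The part that blood left in the vessels had in these values was not tested. Of 11 measured red-cell and blood genes, the globin gene Hbb-b2 alone was at least 2-fold higher after LPS (1.71), and the list median was 0.59 after LPS and 2.86 after PBS. Probes for globin genes share sequence with paralogs.

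The Clec4 and Pilr families were picked after their values had been seen and are counted whole. Of 11 Clec4 genes 8 were measured and 5 were at least 2-fold higher, with a median of 1.26 and a range of −0.11 (Clec4a2) to 1.77 (Clec4e). Clec4b1 differed by 1.64, Clec4a1 by 1.38 and Clec4a3 by 1.31, whereas Clec4n, the Dectin-2 gene, differed by 0.11 and Clec4g by −0.083. With normexp 2 of the 5, Clec4b1 and Clec4a1, remained at least 2-fold higher. All 3 paired immunoglobulin-like type 2 receptor genes were at least 2-fold higher, Pilrb2 at 2.21, Pilrb1 at 1.71 and Pilra at 1.20. On the PBS arrays these 3 differed by 0.67, 0.70 and 0.77. With normexp Pilrb2 was at 0.85, under 2-fold. Cybb, which encodes the catalytic subunit of the phagocyte NADPH oxidase, stood at −5.44 on wild-type LPS and −3.10 on Nav1.8CreROSA26DTA LPS, a difference of 2.34, or 0.86 with normexp.

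**Figure D3:**
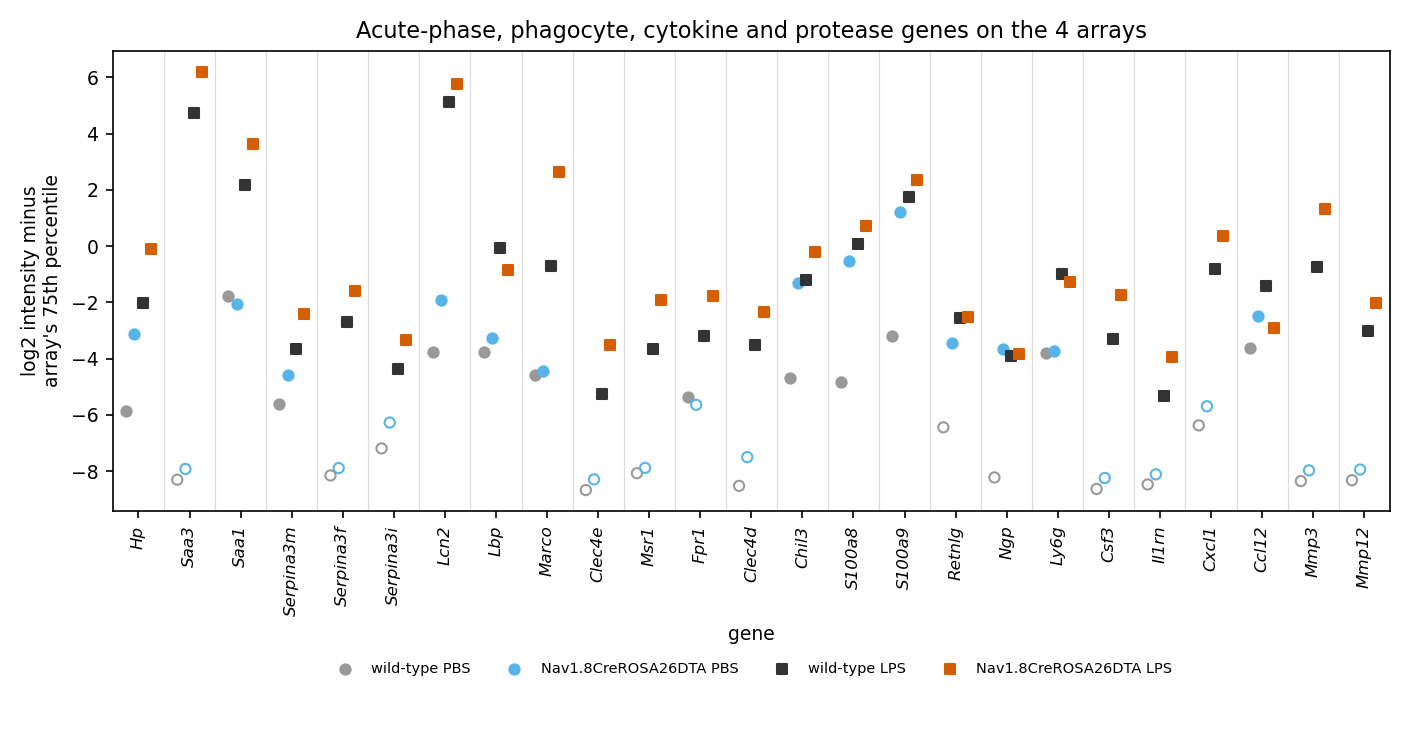
Levels of acute-phase, phagocyte, cytokine, chemokine and protease genes on the 4 arrays, as log2 intensity minus the array's 75th percentile, where open symbols are not well above background. Marco and Mmp3 separate the LPS arrays by 3.34 and 2.06, S100a8 separates the PBS arrays (4.29) more than the LPS arrays (0.66), and Lbp and Ccl12 are lower on Nav1.8CreROSA26DTA LPS.

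Of 34 measured cytokine and NF-kB target genes 2 were at least 2-fold higher and 0 lower, with a median of 0.11. Csf3, whose product drives granulocyte formation, stood at −3.31 on wild-type LPS and −1.73 on Nav1.8CreROSA26DTA LPS, a difference of 1.58. Il1rn, the interleukin-1 receptor antagonist gene, differed by 1.36, or 0.34 with normexp. Il6 was well above background on Nav1.8CreROSA26DTA LPS alone, at least 2.67-fold higher there. Il1b (−0.43) and Tnf (−0.11) had lower values in Nav1.8CreROSA26DTA.

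Among 18 measured chemokine genes 1 was at least 2-fold higher and 1 lower, while 6 lay at 0.5 or more and 4 at −0.5 or less, with a median of 0.088. Of all 16520 measured genes 732 lay at 0.5 or more and 421 at −0.5 or less. Cxcl1, a neutrophil chemoattractant gene, stood at −0.82 on wild-type LPS and 0.35 on Nav1.8CreROSA26DTA LPS, 1.17 apart. Ccl12, a monocyte chemoattractant gene, stood at −3.62 (wild-type PBS), −2.47 (Nav1.8CreROSA26DTA PBS), −1.43 (wild-type LPS) and −2.91 (Nav1.8CreROSA26DTA LPS). It was therefore lower in Nav1.8CreROSA26DTA after LPS (−1.48) and higher after PBS (1.16). Ccl2 differed by −0.10 after LPS and by 2.59 after PBS, and Ccl5 by 0.73 and 1.52. Cxcl10 differed by 0.074. Cxcl13, a B-cell attracting chemokine gene, was well above background on Nav1.8CreROSA26DTA LPS alone and at least 7.48-fold higher there.

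The upstream sequences of Cxcl1 and Saa3 are shown for the letters of sites known to act in inflammatory promoters. They are the 250 bases before the RefSeq start on GRCm38.p6, for Cxcl1 chr5:90890995-90891244 on the plus strand and for Saa3 chr7:46715677-46715926 on the minus strand. Capitals mark matches on either strand to the NF-kB consensus or to TTGCNNAA, a form of the C/EBP site.
Cxcl1: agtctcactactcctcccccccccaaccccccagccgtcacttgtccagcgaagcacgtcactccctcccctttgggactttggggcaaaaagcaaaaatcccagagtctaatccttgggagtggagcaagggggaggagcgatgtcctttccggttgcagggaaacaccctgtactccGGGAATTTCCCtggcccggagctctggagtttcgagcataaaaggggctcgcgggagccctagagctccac
Saa3: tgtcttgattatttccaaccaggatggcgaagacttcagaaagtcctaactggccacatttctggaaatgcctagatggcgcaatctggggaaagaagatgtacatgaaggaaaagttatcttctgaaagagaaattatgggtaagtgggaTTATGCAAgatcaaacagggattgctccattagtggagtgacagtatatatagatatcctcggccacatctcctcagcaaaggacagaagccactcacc
Cxcl1 held 2 overlapping matches to the NF-kB consensus, which 3.75% of all promoters contained. Saa3 held 1 match to TTGCNNAA, written as the reverse complement, and 9.55% of all promoters contained such a match. Of 11 measured acute-phase genes with an upstream sequence, 6 (54.5%) held TTGCNNAA, and 1 (9.09%) held the NF-kB consensus. TTGCNNAA was also held by 22.0% of the 100 genes at least 2-fold higher. Its share was 21.4% among 28 measured neutrophil and monocyte genes and 10.5% among 19 measured myelin genes. The NF-kB consensus too was more frequent among the 100 higher genes than among all promoters. No difference between these shares was tested, and matching letters do not show a bound site.

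Interferon-responsive genes were at similar or slightly lower levels in Nav1.8CreROSA26DTA. Of 37 measured type I interferon-stimulated genes 0 were 2-fold apart in either direction, 29 were below 0 and the median was −0.16. Herc6 had the lowest difference (−0.73) and Slfn2 the highest (0.42), with the antiviral effector Ifit3 at −0.55, the transcription factor gene Irf7 at −0.41 and Isg15 at −0.15. On the PBS arrays the 34 members measured on all 4 arrays had a median of 0.48. Genes of antigen presentation and of GTPases induced by interferon-gamma had a median of −0.060 over 34 genes, from Gbp2 at −0.52 to Irf8 at 0.32, and again 0 were 2-fold apart. Gbp2b, a guanylate-binding protein gene outside the list, was not well above background on wild-type LPS and was at least 48.8-fold higher in Nav1.8CreROSA26DTA, the highest bound of any gene. The PBS arrays also separated by genotype for Gbp2b. It was dim on wild-type PBS (−8.55) and well above background on Nav1.8CreROSA26DTA PBS (−5.57). Ubd, which encodes the ubiquitin-like protein FAT10, stood at −5.08 and −2.55 on the LPS arrays, a difference of 2.53, or 0.93 with normexp.

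Microglial genes gave no 2-fold difference among the 22 homeostatic markers, of which 16 were below 0 with a median of −0.19. P2ry13, a purinergic receptor gene, had the lowest difference (−0.91), followed by Ltc4s (−0.73), Selplg (−0.70) and the lipid receptor gene Trem2 (−0.59). P2ry12, the purinergic receptor most used to mark microglia, stood at −2.72 on wild-type LPS and −2.70 on Nav1.8CreROSA26DTA LPS. Of 28 activated microglia and border macrophage genes Ms4a6c alone was 2-fold apart (1.28), and the median was 0.011. Reactive astrocyte genes (26 measured) had a median of 0.18 and homeostatic astrocyte genes (20 measured) one of 0.022, with 0 genes 2-fold apart in both.

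Of 14 measured genes of matrix metalloproteinases and their inhibitors 2 were at least 2-fold higher. Mmp3, a stromelysin gene, was dim on both PBS arrays and stood at −0.74 on wild-type LPS and 1.32 on Nav1.8CreROSA26DTA LPS, 4.16-fold apart. Mmp12, the macrophage elastase gene, differed by 1.01, or 0.60 with normexp. Timp1, which inhibits both proteases, differed by −0.26. The list median of 0.13 turned to −0.044 over brighter members.

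Ependyma and cilia genes (16 measured) had a median of 0.47 after LPS, with 13 above 0 and 8 of them at 0.5 or more. Of all 16520 measured genes 732 were at 0.5 or more. No measured ependyma and cilia gene was brighter than the median measured gene. Over the 15 members measured on all 4 arrays the median was 0.41 after LPS and 0.34 after PBS. Tmem212 differed by 0.92, Ccdc153 by 0.89, the axonemal dynein gene Dnah9 by 0.87 and Foxj1, the master regulator of motile cilia, by 0.85, and none of the list reached 2-fold. After PBS these genes differed by 4.56, 2.44, −0.17 and 0.36 in that order, with Tmem212 at −8.67 on wild-type PBS. With normexp their LPS differences were 0.37, 0.44, 0.59 and 0.56 in the same order. Dnah6, a dynein gene outside the list, differed by 1.71 after LPS and by 2.41 after PBS. Among 17 measured choroid plexus genes 2 were at least 2-fold lower, Cldn2, a claudin gene of the choroid plexus epithelium, at −1.59 and Calml4 at −1.41. With normexp they were at −0.62 and −0.64, and 0 genes of the list were 2-fold lower. After PBS Calml4 was higher in Nav1.8CreROSA26DTA instead (2.95), with wild-type PBS at −8.58. Kcnj13, a potassium channel gene of the same epithelium, differed by −0.71 and Folr1, the folate receptor gene, by 0.47. Ttr, the transthyretin gene and the principal product of the choroid plexus, was not well above background on wild-type LPS and at least 3.97-fold higher in Nav1.8CreROSA26DTA. Its signal was also low after PBS, at −8.34 in wild-type and −7.27 in Nav1.8CreROSA26DTA. The choroid plexus median was −0.11 over all members and 0.35 over the 4 brighter ones, and 4 members were above background in Nav1.8CreROSA26DTA alone against 1 in wild-type alone.

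The kynurenine pathway, which breaks down tryptophan into neuroactive products, had a median of −0.033 over 15 measured genes with 0 at least 2-fold higher and 1 lower. Kmo, the gene of kynurenine 3-monooxygenase, stood at −3.98 on wild-type LPS and −5.01 on Nav1.8CreROSA26DTA LPS, a difference of −1.02, or −0.42 with normexp. Slc7a5, a tryptophan and kynurenine carrier gene, differed by −0.53. Ido1, the gene of the first enzyme of the pathway in inflammation, stood at −3.60 (wild-type PBS), −3.50 (Nav1.8CreROSA26DTA PBS), −2.65 (wild-type LPS) and −2.32 (Nav1.8CreROSA26DTA LPS). The scanner signals thus gave a difference of 0.33 after LPS. In the deposited value table the same probe gave 1.44. Of the 237220 values in that table, 237219 equalled the array's processed signal times 1 factor within 0.5%, and the Ido1 value on the Nav1.8CreROSA26DTA LPS array was the 1 that did not. It was deposited as 499, whereas the processed signal of 146 times the factor gives 229, so the deposited value is 2.18 times higher. The spot carried no outlier mark, and no label or file header used here explains the value. The result for Ido1 therefore depends on which deposited file is used.

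Among REG lectin genes, Reg1 was at least 2-fold lower, at −2.06 on wild-type LPS and −3.15 on Nav1.8CreROSA26DTA LPS (difference −1.09). With normexp it was at −0.76, under 2-fold. Reg3g, which encodes an antimicrobial lectin, stood at −4.15 and −4.35 on the same arrays, a difference of −0.20, and was dim on both PBS arrays. Extl3, the gene of a proposed REG receptor, differed by 0.056.

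**Figure D4:**
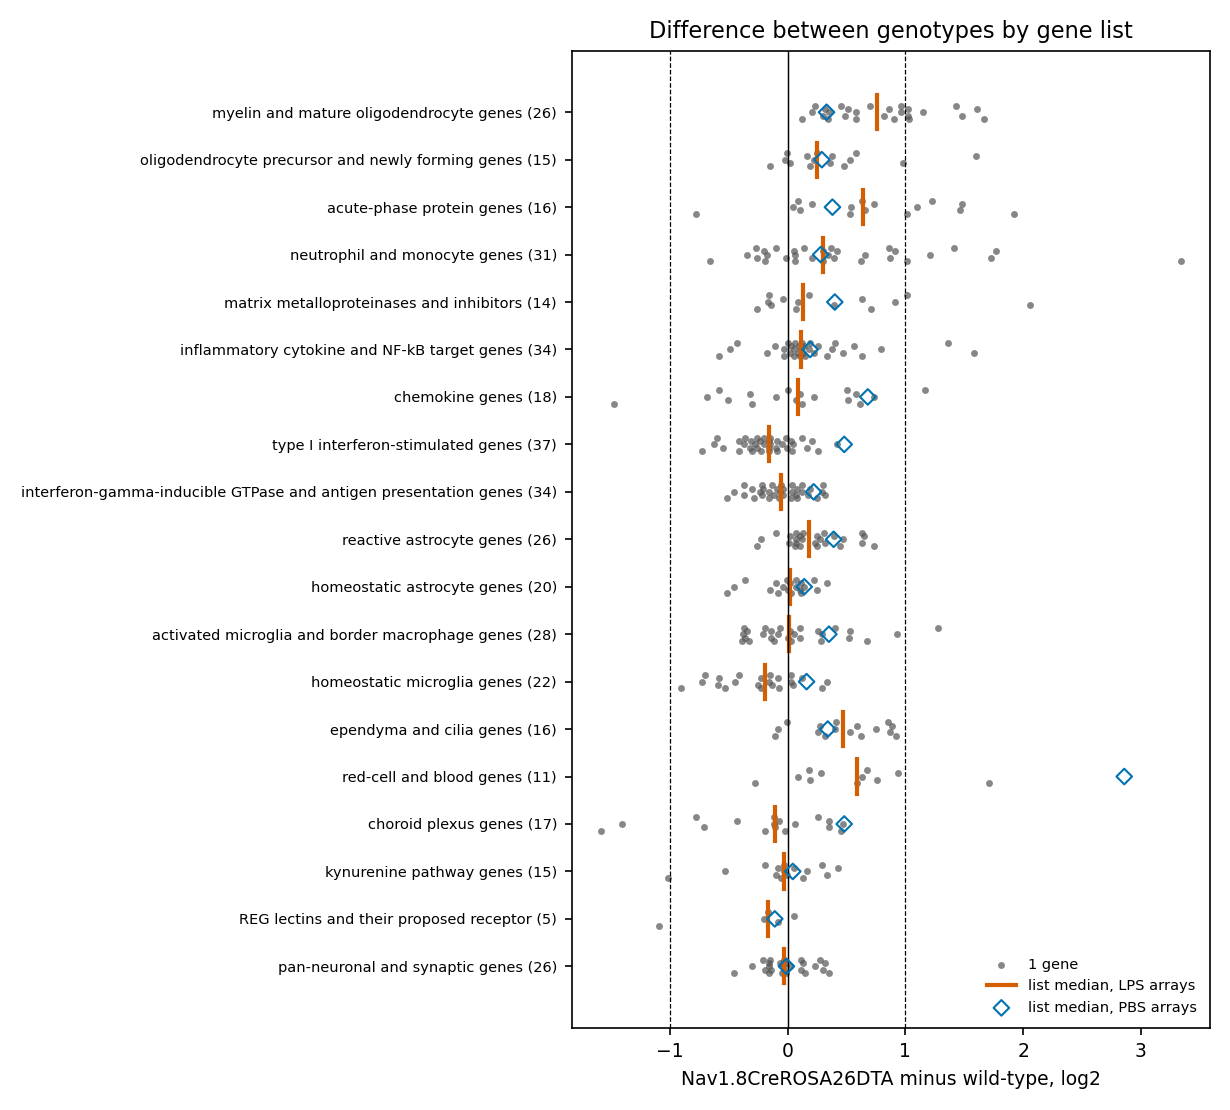
Difference between genotypes after LPS (log2, Nav1.8CreROSA26DTA minus wild-type) for each measured gene of 19 lists, with the list median after LPS (orange bar) and after PBS (open blue diamond), the number of measured genes in brackets and dashed lines at 2-fold. The myelin list has the highest LPS median (0.76), acute-phase genes follow (0.64), and the type I interferon (−0.16) and homeostatic microglia (−0.19) medians lie below 0 after LPS and above 0 after PBS.

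Of the 15 genes with the largest differences toward Nav1.8CreROSA26DTA, several also differed after PBS. After Marco came Sv2c, a synaptic vesicle protein gene, at −4.74, −2.24, −5.53 and −2.42 on the arrays in the order used for the myelin genes. Stbd1, a glycogen-binding protein gene, stood at −2.95, −0.55, −2.95 and −0.30, and its 2 probes gave 2.65 and 2.90. For Stbd1 the arrays separate by genotype and hardly by injection. For Sv2c they separate more by genotype than by injection, with changes from PBS to LPS of −0.80 in wild-type and −0.18 in Nav1.8CreROSA26DTA. BC049715 (2.50), Hddc3 (2.28), Foxi1 (2.21), the pseudogene Pisd-ps3 (2.21), Arsi (2.16), Rec114 (2.15), Efcab1 (2.10), Rnf122 (2.10) and Matn1 (2.08) completed the group with Ubd, Cybb and Pilrb2. Efcab1 rested on 1 probe, since its second gave 0.051. With normexp 8 of the 15 remained at least 2-fold higher, and Sv2c was at 1.29.

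The 15 genes with the largest differences toward wild-type included several that were high on the wild-type LPS array alone. Prap1, the gene of a secreted epithelial protein, stood at −5.46, −5.65, −3.00 and −5.54, so the wild-type LPS array alone was high. Nckap5 (−2.09), Vwa5b1 (−2.07), Akap4 (−2.02), a sperm-tail anchoring protein gene, and Scgb3a1 (−1.73), a secretoglobin gene, were also highest on that array. The remaining 10 were Fut4-ps1, Gm36177, Rxfp2, 1700113H08Rik, A230028O05Rik, Bfsp2, Cpt1b, Cldn2, Mboat4 and Mylk3, between −1.89 and −1.56. Each of the 15 had 1 measured probe. With normexp 3 of the 15, Nckap5 (−1.24), Vwa5b1 (−1.20) and Scgb3a1 (−1.29), remained at least 2-fold lower, and Prap1 was at −0.91. The highest bounds toward wild-type were at least 12.4-fold for Chil6, a chitinase-like protein gene, and for Olfr98, at least 9.02-fold for Sult2a7, 8.97-fold for 4930471C04Rik and 8.76-fold for Ccdc85c. Toward Nav1.8CreROSA26DTA, after Gbp2b, they were at least 21.0-fold for Gdpd3, 11.3-fold for Gdf2, 10.9-fold for Gm16675 and 10.6-fold for Gm5475. Gdpd3, like Gbp2b, was well above background on both Nav1.8CreROSA26DTA arrays and on neither wild-type array, and its PBS difference was 5.90.

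Of genes brighter than the median measured gene, 21 were at least 2-fold apart, and those that belong to none of the lists are named after their values were seen. Besides Marco, Mmp3, Saa3, Saa1 and the myelin genes Mobp, Cldn11 and Cnp, the 18 higher ones included Pisd-ps3, Tle1 (1.89), the listed genes Hbb-b2 and Nr4a2 (1.32), a nuclear receptor gene of the activity-dependent list, Tmem125 (1.18), the creatine synthesis gene Gamt (1.16), the neurexin ligand gene Nxph3 (1.14), Marcksl1 (1.13), the neuropeptide gene Nmb (1.06) and the haematopoietic signalling gene Hcls1 (1.03). Nr4a2 stood at 1.35 on wild-type LPS and 2.67 on Nav1.8CreROSA26DTA LPS, and its 2 probes gave 1.32 and 1.48. It was the only gene of its list 2-fold apart. Of the 28 measured members of that list 21 were below 0, with a median of −0.12. The 3 brighter genes at least 2-fold lower included Prg4 (−1.39), the gene of the lubricant proteoglycan lubricin. Prg4 stood at 2.71 and 1.32 on the LPS arrays and differed by −0.045 after PBS. Single members of other lists were also 2-fold apart, namely the cerebellar gene Cbln1 (1.38), the acetylcholine-synthesis gene Chat (1.13, its second probe at 0.085), Cd79b (1.51), Madcam1 (−1.06) and Zic4 (−1.01). With normexp Cbln1 (1.17) alone of these 5 remained 2-fold apart.

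The genotype difference after PBS rests on the other 2 arrays, so it could be set beside the LPS difference. On those arrays 1.21% of 16627 measured genes were at least 2-fold higher in Nav1.8CreROSA26DTA and 0.415% lower. Over the 16244 genes measured on all 4 arrays, 28 were at least 2-fold higher with both injections, which is 26.9% of the 104 higher after LPS and 15.9% of the 176 higher after PBS. In the lower direction 1 gene was 2-fold apart with both injections, 1.96% of the 51 lower after LPS and 1.49% of the 67 lower after PBS. Of the 28 higher genes, those with the largest smaller difference were Sv2c, Stbd1, Hp, 9630013A20Rik, Tle1, Hbb-b2, Dnah6, Pisd-ps3, Hddc3 and Rnf122. Tle1, a transcriptional corepressor gene, stood at −0.15, 1.57, −0.36 and 1.53 on the arrays in the order used above, and Pisd-ps3 at 2.51, 4.19, 1.78 and 3.99, each grouping by genotype.

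**Figure D5:**
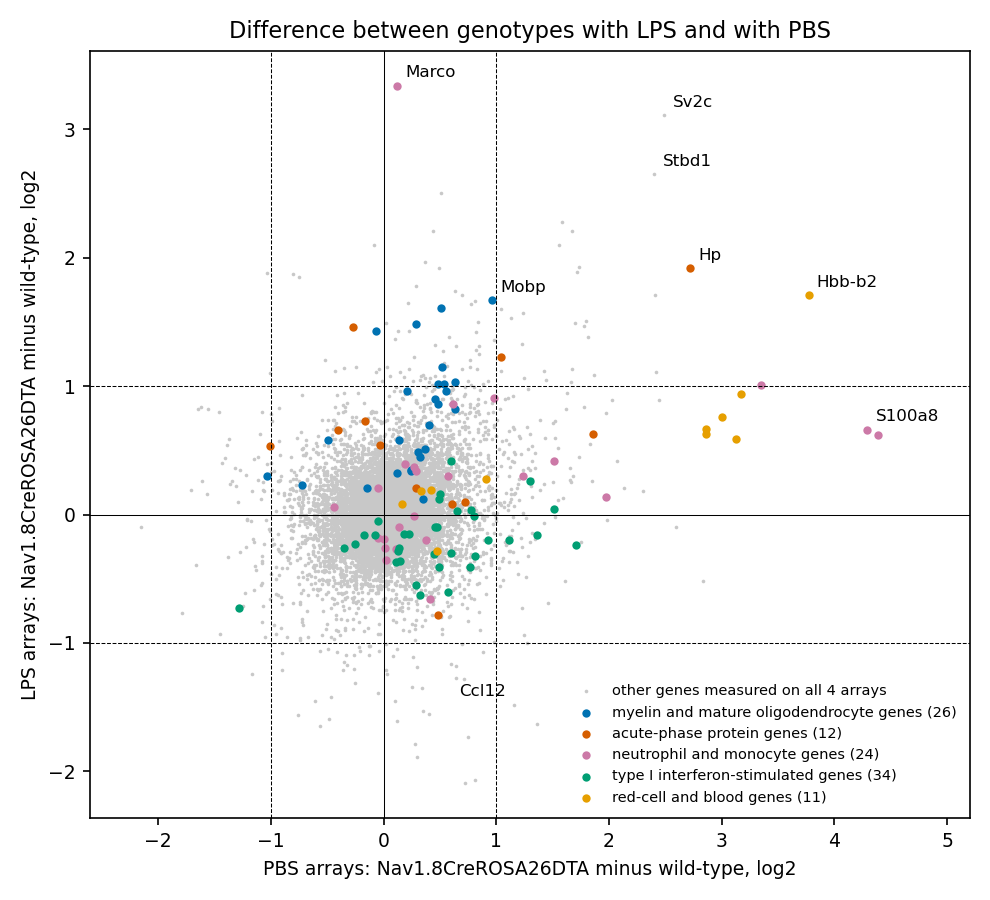
Difference between genotypes after PBS (horizontal) and after LPS (vertical), log2 of Nav1.8CreROSA26DTA minus wild-type, for the 16244 genes measured on all 4 arrays, with dashed lines at 2-fold. Sv2c, Stbd1, Hp and Hbb-b2 lie beyond 2-fold on both axes, Marco on the vertical axis alone, and S100a8 on the horizontal axis alone.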

How the data were processed

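Whole-brain RNA was hybridised to Agilent 1-colour arrays, 1 per group, 4 in all. Per the file headers, the deposited scanner files hold processed spot intensity from Agilent Feature Extraction 12.0.3.1, whereas the submitters' processing notes name 11.0.1.1. The deposited flags mark spots well above background. From these intensities log2 was taken, spots of a probe were averaged, and each array's 75th percentile over non-control spots was subtracted (Python 3.11.15, pandas 2.3.3). A gene is its representative probe. Symbols covered 33767 of 56605 probes. A gene measured on 1 LPS array alone has a bound, the bright level over the higher of the dim probe's own level and the lowest level well above background.

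With 1 array per group there was no test, and 2-fold is the size that was counted. Spot repeats within an array do not measure variation between mice. The members and the 47 gene lists were chosen with earlier results of these data known. List members with the largest differences were named first. Outside the lists these were the 15 largest differences and 5 highest bounds each way, the 10 genes 2-fold apart the same way on the PBS arrays, and up to 5 that were opposite. Alternatives used limma 3.58.1 in R 4.3.3 for normexp (offset 50), quantile and cyclic loess. The mean-signal column is not used here, so normexp took median signals. The deposited value table, also intensity on a linear scale, was set against the scanner files and used as an alternative. The counting code was tested on simulated data. Upstream sequences are from RefSeq (GRCm38.p6). A few genes counted in the totals are not reported here by name.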

Additional observations from a re-analysis of the deposited data

Results flagged for a closer look

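Genes measured on all 4 arrays were singled out where the genotypes were at least 2-fold apart in opposite directions after LPS and after PBS. There were 4, with 1 array per group, and the difference between the injections was not tested for any of them. Afp, the alpha-fetoprotein gene, was higher in Nav1.8CreROSA26DTA after LPS (1.88) and lower after PBS (−1.03). The unnamed transcript gene 4831407H17Rik went the same way, at 1.10 and −1.01. Bfsp2, a lens filament gene, was lower after LPS (−1.63) and higher after PBS (1.36). Ccl12, the chemokine gene described above, was likewise lower after LPS (−1.48) and higher after PBS (1.16). With normexp the LPS difference stayed 2-fold for 1 of the 4, Ccl12 (−1.09). It was 0.47 for Afp, 0.48 for 4831407H17Rik and −0.76 for Bfsp2.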

How the results depend on the processing

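No paired analysis was possible because each group has 1 array, and for the same reason no array could be left out. The counts of genes at least 2-fold higher and lower (137 and 61) became 42 and 9 with normexp, 871 and 537 with no filter on dim probes, and 18 and 3 among genes brighter than the median measured gene. Other scalings, the deposited value table and the mean of all probes kept both counts within 1.5 times. Among list medians, that of nociceptor genes turned to −0.034 with normexp. Among brighter genes the medians of nociceptor (−0.071), neutrophil and monocyte (−0.015), activated endothelium (−0.007), choroid plexus (0.35), matrix metalloproteinase (−0.044) and thyroid hormone and retinoid genes (−0.006) turned sign, with fewer members measured. The myelin median lay between 0.64 and 0.76 in all 8 alternatives. The difference of Ido1 was 0.33 from the scanner files and 1.44 from the deposited value table, and this rests on the single value that departs from the scanner signal. The normexp alternative was planned on mean signals and was run on median signals. Low signal limits most genes past 2-fold.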

Other observations

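The response of Ido1 to LPS also depends on the file used. In Nav1.8CreROSA26DTA the LPS array stood 1.19 above the PBS array on the scanner signals and 2.40 above it in the deposited value table, against 0.96 and 1.01 in wild-type. These responses share their LPS arrays with the genotype difference. The probe has 1 spot on the array, whose median signal of 192 before processing also lies under the deposited 499. Whether the table or the scanner file holds the intended value was not tested, and no label or file header used here explains the discrepancy.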
